A study of Mus musculus with 18 samples.

Results

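The 10 genes described here encode the enzymes of the hepatic methionine cycle and of the transsulfuration pathway, and were taken from a table of 37303 mouse genes by their names: Mat1a, Mat2a, Mat2b, Gnmt, Ahcy, Bhmt, Bhmt2, Mtr, Cbs and Cth. All 10 were found in the table. RNA-Seq of poly-A RNA from liver covered 18 mice on the C57BL/6J background in 6 groups of 3. Wild type (WT) mice, mice deleted for Gcn2 in the whole body (Gcn2-/-) and mice deleted for Atf4 in the whole body (Atf4-/-) received either asparaginase (ASNase, the drug Elspar) at 3 IU per gram body weight or an equal volume of phosphate buffered saline (PBS). Both were given intraperitoneally as 8 daily injections, and livers were taken 7.5 h after the last. The sample labels give an age of 8 to 16 weeks, whereas the growth protocol gives 8 to 12 weeks. Both sexes were present in each group, with 1 male of 3 mice in WT PBS, Gcn2-/- PBS and Gcn2-/- ASNase and 2 males of 3 in the other groups.

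Methionine is activated to S-adenosylmethionine, the methyl donor of most cellular methylation. The liver enzyme for this step is encoded by Mat1a, whereas Mat2a encodes the form used by most other tissues and Mat2b its regulatory subunit. After methyl transfer, S-adenosylhomocysteine is split by the product of Ahcy, and the resulting homocysteine is either methylated back to methionine or passed through cystathionine to cysteine. The products of Bhmt, Bhmt2 and Mtr serve the first route and those of Cbs and Cth the second. The liver carries out most of this turnover, and ASNase, which depletes circulating asparagine and to a lesser degree glutamine, is sensed there by the kinase GCN2, with ATF4 as a transcription factor that acts after it. Cth is among the genes known to respond to ATF4 in other settings. The comparisons below ask whether transcript levels of these enzymes differed with ASNase, with loss of Gcn2 and with loss of Atf4.

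Each gene has 1 expression value per group, in FPKM (fragments scaled to transcript length and to the mapped reads of the library), an estimate that Cuffdiff made over its 3 libraries at once, with a lower and an upper bound. Values of single livers were not analysed here, so there is no SD, no n and no p-value, and replicates could not be checked for any difference. The interval between the bounds is the only error available, and depth per gene is unknown. All 60 values of the 10 genes carried the status OK, meaning that the estimate succeeded, whereas 45 genes of the table lacked an estimate in at least 1 group. Among those was Alb, which encodes albumin and stands at 0 throughout the table. Another hepatocyte marker, Fgb, had no estimate in the 2 knockout groups given ASNase and was left out of the sums. The remaining 6 of the 8 markers, Ttr, Apoa1, Cyp2e1, Cps1, G6pc and Tat, were estimated in all 6 groups. Summed over those 6 markers, WT mice had 17451 FPKM under PBS and 14464 after ASNase. The sum was 18367 in Gcn2-/- mice under PBS and 9251 after ASNase. Atf4-/- mice had sums of 15939 and 7312. Markers of skeletal muscle (8 genes) summed to 771 (PBS) and 1101 FPKM (ASNase) for WT, 5.75 and 8.72 for Gcn2-/- and 60.2 and 121 for Atf4-/- mice. The 4 bile duct markers summed to between 2.68 and 4.79 FPKM. The part of cell composition in the values below was not tested, and in bulk liver fewer cells of a type and less RNA per cell cannot be told apart. For the deleted genes, Atf4 had an FPKM of 32.3 and 29.3 in the Atf4-/- groups and 50.4 to 68.1 in the other groups, and Eif2ak4, which encodes GCN2, had 2.19 to 3.14 in all 6 groups. A value summed over all exons does not check a partial deletion. The authors report read density plots that lack an exon of Gcn2 in Gcn2-/- mice and Atf4 in Atf4-/- mice. They also assessed Atf4 by RT-qPCR.

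Among the 10 genes are 2 pairs of similar sequence, and the stretches where reads of one could be taken for the other are shown here because they bear on how far the values of the pair are separate. Coding sequences of Mat1a and Mat2a were identical at 73.6% of 1182 aligned bases, and those of Bhmt and Bhmt2 at 75.4% of 1088. The most alike stretch of 100 coding bases in each pair is printed 5′ to 3′ on the coding strand from GENCODE transcripts on GRCm38 (mm10), with capitals at the bases that differ. The Mat1a stretch spans exons 5 and 6 on the + strand, the Mat2a stretch exons 4 and 5 on the - strand, and both Bhmt stretches lie within exon 7 on the - strand. The coordinates of the Mat1a and Mat2a stretches run from the first to the last base and include an intron.
Mat1a, chr14:41114258-41114750: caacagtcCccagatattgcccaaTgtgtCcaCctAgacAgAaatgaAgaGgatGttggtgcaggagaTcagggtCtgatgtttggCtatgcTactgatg
Mat2a, chr6:72436313-72436488: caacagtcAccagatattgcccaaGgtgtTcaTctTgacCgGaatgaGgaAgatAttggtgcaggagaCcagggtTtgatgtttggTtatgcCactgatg
Bhmt, chr13:93620188-93620287: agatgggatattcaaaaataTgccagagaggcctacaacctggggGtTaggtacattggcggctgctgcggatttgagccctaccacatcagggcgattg
Bhmt2, chr13:93662408-93662507: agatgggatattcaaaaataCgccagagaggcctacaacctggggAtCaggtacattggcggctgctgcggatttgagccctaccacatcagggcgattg
The Mat1a and Mat2a stretches differed at 14 of 100 bases and those of Bhmt and Bhmt2 at 3 of 100, so no coding window of that length was identical within either pair.

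Identity with genes outside the 10 was larger. Of all 100-base windows of the Ahcy transcripts, 63.6% also occurred in Gm4737 or Gm9826, 2 loci whose own FPKM reached at most 0.223 in any group. For Bhmt the share was 17.4%, shared with Gm5096, Bhmt-ps1 and the antisense gene Gm15622. It was 8.31% for Mat2a, 1.31% for Bhmt2 and 0 for the other 6 genes. Mat2a also shares 11.3% of its exonic bases with Particl on the opposite strand, and Bhmt 3.25% with Gm15622, and reads counted without strand cannot be told apart there. Of the loci that share windows with Bhmt, Gm5096 reached at most 0.413 FPKM in any group, Bhmt-ps1 0.219 and Gm15622 4.02. The assignment of reads from the shared stretches of Ahcy, Bhmt and Mat2a is uncertain. The shares are not errors of the FPKM, and their effect on the values was not tested.

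The 10 genes spanned a wide range of abundance. FPKM is a level per transcript length and can be compared between genes. In WT PBS livers Gnmt was highest at 1720 FPKM, rank 48 of all genes, followed by Mat1a at 1093, Bhmt at 790, Ahcy at 453, Cbs at 383 and Cth at 349. Neighbours in that order had overlapping intervals. Bhmt2 stood lower at 81.6 FPKM (45.5 to 118), with an interval below that of Cth but overlapping those of Cbs and Ahcy (100 to 806). Mat2a at 27.8 (16.4 to 39.2) and Mat2b at 19.9 (10.6 to 29.2) had overlapping intervals with each other and lay below that of Bhmt2. Mtr was lowest at 1.14 (0.508 to 1.77), rank 11060, with an interval below all others except that of Cbs.

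**Figure D1:**
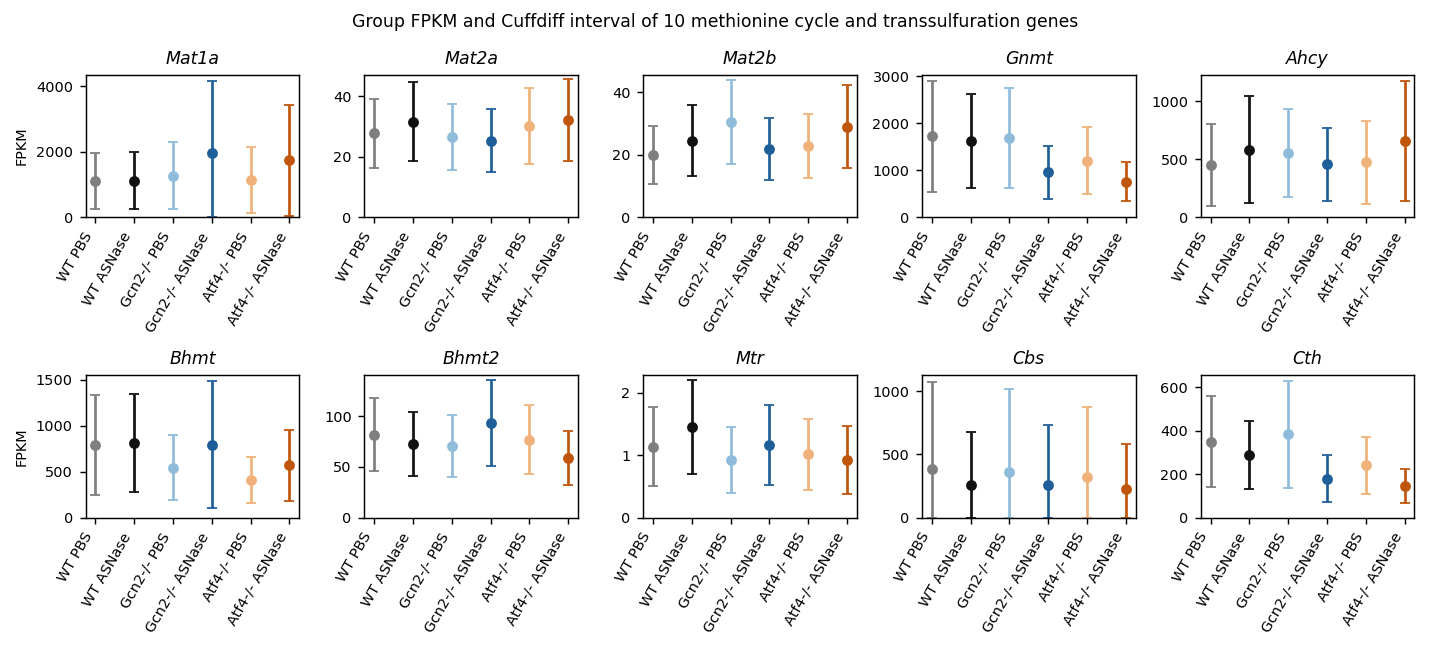
FPKM (linear axis from 0, scaled per gene) of each of the 10 genes in the 6 groups. Points are the group values and bars run from the lower to the upper Cuffdiff bound. Within every gene the bars of the 6 groups overlap, and the bars of Cbs reach 0 in all groups.

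For the synthesis of S-adenosylmethionine, Mat1a (ENSMUSG00000037798, chr14:41105035-41124412, + strand) had an FPKM of 1093 (interval 240 to 1947) in WT PBS and 1114 (247 to 1981) in WT ASNase livers. In Gcn2-/- livers it had 1272 (244 to 2301) under PBS and 1947 (0 to 4144) after ASNase. In Atf4-/- livers the values were 1144 (138 to 2149) and 1731 (49.0 to 3414). The 2 knockout groups given ASNase held the highest values, with the widest intervals, and no interval was separate from another. Mat2a (ENSMUSG00000053907, chr6:72432799-72439558, - strand) had 27.8 FPKM (16.4 to 39.2) in WT PBS and 31.6 (18.5 to 44.6) in WT ASNase livers. Gcn2-/- mice had 26.5 (15.6 to 37.3) and 25.4 (14.9 to 35.8), Atf4-/- mice 30.1 (17.7 to 42.6) and 32.1 (18.5 to 45.7). Mat2a was the steadiest of the 10 genes, with the highest group value 1.27 times the lowest. Of all 9815 genes over 3 FPKM that were estimated in every group, 6.85% had a smaller log2 range than Mat2a. Mat2b (ENSMUSG00000042032, chr11:40679314-40695203, - strand) ranged from 19.9 FPKM in WT PBS to 30.5 in Gcn2-/- PBS livers (17.0 to 43.9). WT ASNase livers had 24.5 and Gcn2-/- ASNase livers 21.7. Atf4-/- livers had 22.8 (PBS) and 29.0 (ASNase), and all intervals overlapped.

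Gnmt and Ahcy follow on the side of use. Gnmt (ENSMUSG00000002769, chr17:46725664-46729168, - strand), whose product methylates glycine and so disposes of excess S-adenosylmethionine, had an FPKM of 1720 (530 to 2911) in WT PBS and 1622 (627 to 2618) in WT ASNase livers. In Gcn2-/- livers it had 1689 (621 to 2758) under PBS and 956 (393 to 1520) after ASNase. In Atf4-/- livers it had 1208 (498 to 1918) and 754 (340 to 1168). The lowest values were those of the 2 knockout groups given ASNase, and their intervals overlapped those of every other group. Ahcy (ENSMUSG00000027597, chr2:155059310-155074497, - strand) varied less, between 453 FPKM (100 to 806) in WT PBS and 658 (139 to 1176) in Atf4-/- ASNase livers. In between lay WT ASNase livers with 583, Gcn2-/- livers with 553 (PBS) and 455 (ASNase), and Atf4-/- PBS livers with 472.

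Among the genes for remethylation, Bhmt (ENSMUSG00000074768, chr13:93616675-93637961, - strand), whose product uses betaine as methyl donor, had an FPKM of 790 (243 to 1337) in WT PBS and 809 (275 to 1343) in WT ASNase livers. Gcn2-/- mice had 542 (188 to 895) and 795 (104 to 1486). Atf4-/- mice had 406 (154 to 658) and 568 (179 to 957), so the lowest value was that of Atf4-/- PBS, with an interval that overlapped all others. Bhmt2 (ENSMUSG00000042118, chr13:93655720-93674302, - strand), whose product uses S-methylmethionine, ranged from 58.7 FPKM (31.8 to 85.7) in Atf4-/- ASNase to 92.9 (50.4 to 135) in Gcn2-/- ASNase livers. WT livers had 81.6 (PBS) and 72.3 (ASNase), and PBS livers of Gcn2-/- and Atf4-/- mice had 70.7 and 76.7. Mtr (ENSMUSG00000021311, chr13:12182712-12258113, - strand), the folate- and cobalamin-dependent methionine synthase, lay between 0.921 FPKM (0.390 to 1.45) in Gcn2-/- PBS and 1.45 (0.698 to 2.2) in WT ASNase livers. It did not reach 3 FPKM in any group and was therefore outside the rule for calls.

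For transsulfuration, Cbs (ENSMUSG00000024039, chr17:31608894-31637238, - strand), which joins homocysteine to serine, had an FPKM of 383 under PBS and 254 after ASNase in WT livers. Gcn2-/- mice had 357 (PBS) and 259 (ASNase), and Atf4-/- mice 320 and 224. The lower bound was 0 in all 6 groups, and the upper bound lay between 583 FPKM in Atf4-/- ASNase and 1074 in WT PBS. The distance from value to upper bound was 160 to 184% of the value, against 41.0 to 42.2% for Mat2a. Of 509 genes over 100 FPKM in all groups, 31 had a lower bound of 0 in all of them, and Cbs was the only one of the 10 genes with that property. Cth (ENSMUSG00000028179, chr3:157894248-157925077, - strand), which releases cysteine from cystathionine, had 349 FPKM (141 to 557) in WT PBS and 287 (133 to 442) in WT ASNase livers. In Gcn2-/- livers it had 382 (136 to 628) under PBS and 179 (70.4 to 288) after ASNase. In Atf4-/- livers it had 240 (110 to 371) and 146 (66.3 to 225). Cth had the widest log2 range of the 10 genes, 1.39, with the highest value 2.62 times the lowest, and its intervals still overlapped between all groups.

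**Figure D2:**
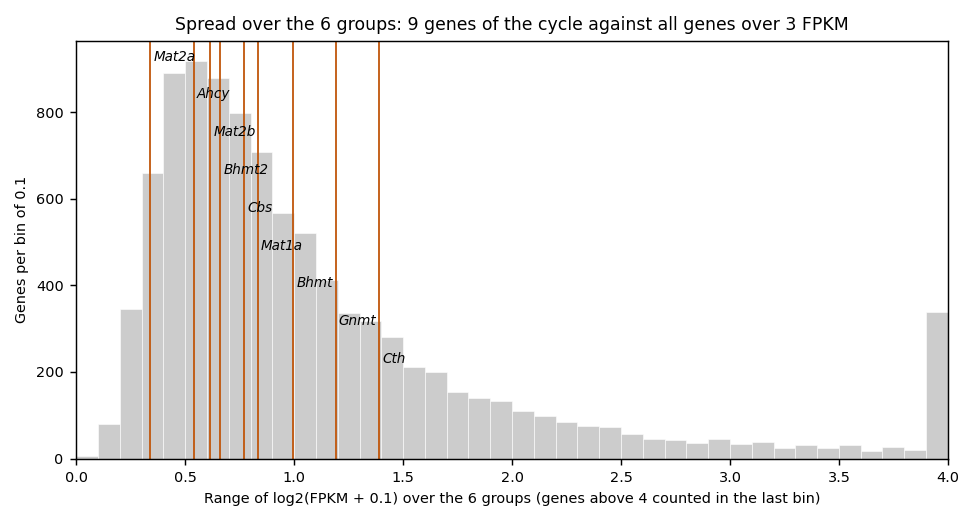
Histogram of the range of log2(FPKM + 0.1) over the 6 groups for 9815 genes over 3 FPKM in at least 1 group (grey bars, 0.1 wide), with the 9 genes of the cycle over that level as vertical lines. The lines lie between 0.34 (Mat2a) and 1.39 (Cth), and the median of all genes is 0.84.

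A gene was called between 2 groups when FPKM was over 3 in either group, the log2(FPKM + 0.1) difference was over 1.5 in size and the intervals did not overlap. The scale understates changes of low genes. Differences below are given with an error. It is the root of the summed squares of both distances to the upper bound as shares of the value, divided by ln 2. This is an approximation that is poor where such a distance exceeds the value, as for Cbs and for Mat1a in Gcn2-/- ASNase livers. With 9 comparisons, 81 of 90 gene and comparison pairs were eligible, the other 9 being those of Mtr. None of the 81 was called, and none had separate intervals. No test over mice stands behind this count. The error of a difference was 0.84 to 0.85 for Mat2a, 0.89 to 0.95 for Bhmt2 and Mat2b, 1.11 to 1.35 for Cth and Gnmt, 1.30 to 1.61 for Ahcy and Bhmt, 1.59 to 2.15 for Mat1a and 3.31 to 3.73 for Cbs. A change of Mat1a below those sizes was not detectable here. Its lower bound of 0 in Gcn2-/- ASNase livers also kept any higher value of that group from being separate. For Cbs the lower bound was 0 in all 6 groups, so its intervals could not be separate in any pair, whatever the change. Cbs is still counted in the 81 pairs and among the 9 eligible genes below, where its outcome was fixed. The comparisons share groups, and their values are set side by side with no test of likeness.

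In WT livers ASNase went with a call for 0.881% of 9084 eligible genes, 0.76% higher and 0.121% lower, and for 0 of the 9 eligible genes of the cycle. Intervals were separate for 1.01% of all genes and for 0 of the 9. Values of 5 were higher and of 4 lower, and their median log2 difference was 0.03 against -0.01 for all genes. Ahcy at 0.37 ± 1.60 and Mat2b at 0.30 ± 0.95 were the highest, and Cbs at -0.59 ± 3.52 and Cth at -0.28 ± 1.16 the lowest. All of these were within their errors.

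For Gcn2-/- livers the ASNase response held calls for 3.69% of 9218 eligible genes (4.24% with separate intervals), and again 0 of the 9 by either rule. The most negative log2 differences were those of Cth, -1.09 ± 1.28, and Gnmt, -0.82 ± 1.25. The most positive were those of Mat1a, 0.61 ± 2.0, and Bhmt, 0.55 ± 1.57. The median absolute difference was 0.49 over the 9 genes and 0.37 over all eligible genes, with 7 of the 9 above that median. Only the difference of Cth was past 2-fold, and it lay within its error.

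For Atf4-/- livers the share called was 7.37% of 9485 eligible genes (8.03% with separate intervals), and 0 of the 9 by either rule. Cth differed by -0.72 ± 1.11, Gnmt by -0.68 ± 1.16 and Cbs by -0.51 ± 3.39 on the log2 scale. Mat1a stood at 0.60 ± 1.89, Bhmt at 0.48 ± 1.33 and Ahcy at 0.48 ± 1.58. The median absolute difference was 0.48 over the 9 genes and 0.52 over all eligible genes, with 3 of the 9 above that median.

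**Figure D3:**
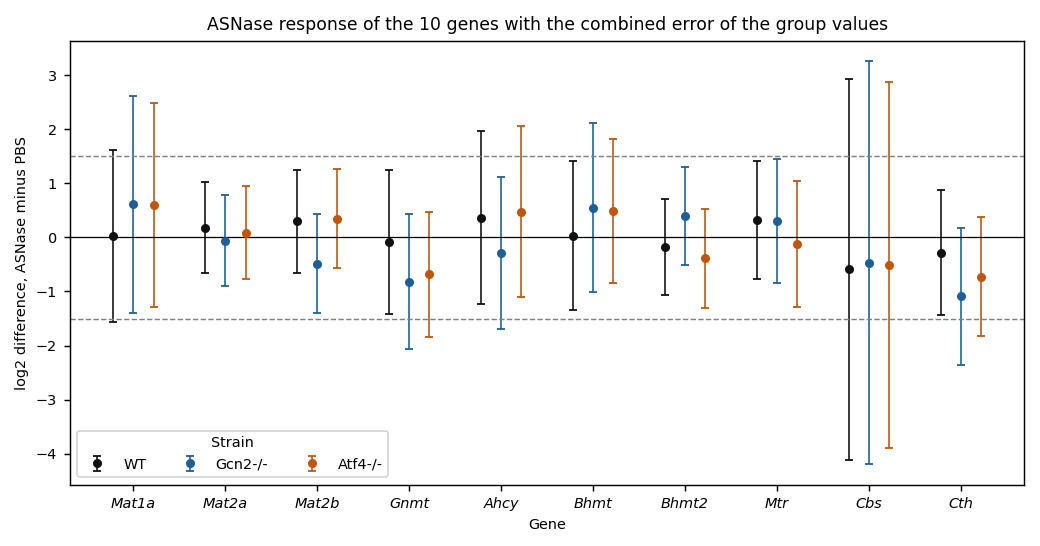
Difference of log2(FPKM + 0.1) between ASNase and PBS for the 10 genes in WT, Gcn2-/- and Atf4-/- livers. Bars are the error of the difference from both Cuffdiff intervals, and dashed lines mark the limit of 1.5 used for calls. All 30 bars cross 0, and no point reaches a dashed line.

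Across the 3 strains, the values of Gnmt, Cbs and Cth were lower after ASNase than under PBS in each. Those of Bhmt were higher in each, as were those of Mat1a, although the difference of Mat1a in WT livers (0.03) turned negative under another scaling. Signs differed between strains for Mat2a, Mat2b, Ahcy, Bhmt2 and Mtr. The difference of responses between strains was taken for each gene and each pair of strains, and 0 of 30 exceeded its error. The largest was that of Mat2b, whose response was 0.83 ± 1.30 higher in Atf4-/- than in Gcn2-/- livers. For Cth the response in Gcn2-/- minus that in WT livers was -0.81 ± 1.72, and for Gnmt it was -0.74 ± 1.83. Both signs lie within these errors.

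Under PBS, loss of Gcn2 went with calls in 1.04% of 8920 eligible genes (1.2% with separate intervals) and loss of Atf4 with calls in 1.12% of 9039 (1.28%), with 0 of the 9 genes in each. For Gcn2-/- against WT, Mat2b had the largest positive log2 difference, 0.61 ± 0.93, and Bhmt the largest negative, -0.54 ± 1.37. For Atf4-/- against WT, Bhmt stood at -0.96 ± 1.34, Cth at -0.54 ± 1.16 and Gnmt at -0.51 ± 1.31. Between the knockouts under PBS, 0.976% of 9015 genes were called (1.25% with separate intervals), 0 of the 9 among them, and the difference furthest from 0 was that of Cth, at -0.67 ± 1.22 for Atf4-/- against Gcn2-/-. The basal differences all lay within their errors.

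Under ASNase, 4.41% of 9423 eligible genes were called between Gcn2-/- and WT livers (4.87% with separate intervals) and 8.25% of 9577 between Atf4-/- and WT livers (9.01%), with 0 of the 9 genes in each. Gnmt was at -0.76 ± 1.23 in Gcn2-/- and at -1.11 ± 1.19 in Atf4-/- livers against WT on the log2 scale. Cth was at -0.68 ± 1.17 and -0.98 ± 1.11 in the same comparisons. For Cth in Atf4-/- livers the FPKM difference was 0.815 of the combined distance to the bounds, the largest such ratio among the 81 pairs, followed by 0.806 for Gnmt. Mat1a was at 0.81 ± 1.98 and 0.64 ± 1.80. Between the knockouts under ASNase 3.19% of 9355 genes were called (3.61% with separate intervals) and 0 of the 9, and Bhmt2 had the difference furthest from 0, at -0.66 ± 0.94 for Atf4-/- against Gcn2-/-.

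Genes next to the cycle were described from 5 lists with 35 genes, all present in the table: remethylation and adenosine, choline and betaine, liver methyltransferases, cysteine breakdown with sulfide oxidation, and methionine salvage with polyamines. After ASNase 0 of 32 eligible genes were called in WT livers. For Gcn2-/- livers 3 of 33 were called lower and 0 higher, against 2.13% lower and 1.56% higher of all eligible genes. For Atf4-/- livers 5 of 34 were called lower and 2 higher, against 4.63% and 2.74% of all. The median log2 difference of the neighbouring genes was -0.05 (WT), -0.34 (Gcn2-/-) and -0.51 (Atf4-/-), beside -0.01, 0.02 and 0.08 over the whole table. With WT as reference under ASNase, 2 of 33 were called lower and 1 higher in Gcn2-/- livers (2.59% and 1.83% of all), and 7 of 33 lower and 0 higher in Atf4-/- livers (5.66% and 2.59% of all). Under PBS 0 of 32 were called in each comparison. The same knockout groups given ASNase had the lowest sums of the 6 hepatocyte markers, but the markers did not move alike. After ASNase 4 of the 6 had lower values in Gcn2-/- and 5 of the 6 in Atf4-/- livers, of which only G6pc in Atf4-/- livers was called. Tat had log2 differences of 1.70 and 1.08, neither called, and Cps1 stood at 0.05 in Gcn2-/- livers. For the 4 periportal markers the sum was 1267 FPKM (PBS) and 1110 (ASNase) for WT, 1523 and 698 for Gcn2-/-, and 1070 and 332 for Atf4-/- mice. For the 4 pericentral markers it was 1406 and 1277, 849 and 690, and 1416 and 240 FPKM, with none of these markers at 0. Within the pericentral list Glul stood at 0.67 in Gcn2-/- and -2.19 in Atf4-/- livers, neither called. Oat stood at -0.71 and -2.78, neither called, whereas Cyp1a2 was called lower after ASNase in both, at -1.99 and -3.42. Of the periportal list only Cyp2f2 was called after ASNase, lower in Atf4-/- livers at -4.11. Of the 4 Kupffer cell markers in the table, Marco was called higher after ASNase in both knockouts, at 3.80 in Gcn2-/- and 2.85 in Atf4-/- livers. Cd5l was called lower in Atf4-/- livers, at -1.55, and stood at -0.07 in Gcn2-/- livers. Clec4f and Vsig4 were lower in both without a call, at -2.08 and -1.04 in Gcn2-/- and -1.76 and -0.97 in Atf4-/- livers. Of the stellate cell and fibroblast list only Col3a1 was called after ASNase, lower in Atf4-/- livers at -3.47. In the same livers Dcn stood at -0.09, Reln at -1.52 without a call, and Lrat at -1.31 with separate intervals but no call. In Gcn2-/- livers Col3a1 stood at -1.31, Reln at -1.54, Dcn at -0.15 and Lrat at 0.24, none called. Col1a1 was not eligible. None of the 4 endothelial markers was called after ASNase. The part of all these markers in the calls was not tested.

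Over the 9 comparisons, 12.1% of 10056 eligible genes were called in at least 1. Of the 35 neighbouring genes 10 were (28.6%), and of the 9 eligible genes of the cycle 0. Of the 7 methyltransferases that draw on S-adenosylmethionine, 3 were called in at least 1 comparison. Gamt, which makes creatine by methylating guanidinoacetate, had an FPKM of 178 (97.9 to 259) in WT PBS and 144 (83.7 to 205) in WT ASNase livers. In Gcn2-/- livers it had 183 (103 to 263) under PBS and 21.3 (11.7 to 30.9) after ASNase. In Atf4-/- livers it had 144 (76.6 to 211) and 3.82 (1.35 to 6.29). The 4 groups outside the knockout ASNase livers overlapped, and the 2 knockout ASNase groups were separate from them and from each other. After ASNase Gamt fell by 3.10 on the log2 scale in Gcn2-/- livers and fell by 5.20 in Atf4-/- livers. Hnmt, the histamine methyltransferase, fell by 1.75 in Gcn2-/- livers, from 31.0 to 9.12 FPKM, and fell by 2.29 in Atf4-/- livers, from 19.6 to 3.93 FPKM. WT livers had 15.8 FPKM of Hnmt under PBS and 17.4 after ASNase. Under ASNase Hnmt was called lower than in WT in Atf4-/- livers, at -2.12, but not in Gcn2-/- livers, at -0.93. Nnmt, which methylates nicotinamide, was called higher in Gcn2-/- than in WT livers under ASNase, at 580 against 139 FPKM. Pemt, As3mt and Tpmt of the same list were called in no comparison.

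In cysteine breakdown, Csad, which leads to taurine, fell by 2.12 on the log2 scale after ASNase in Gcn2-/- livers, from 114 to 26.2 FPKM. In Atf4-/- livers Csad had 117 FPKM under PBS and 54.7 after ASNase, which was not called, while under ASNase it was called lower in both knockouts than in WT livers, where it had 167 FPKM. Suox, the sulfite oxidase, fell by 1.58 in Atf4-/- livers, from 49.3 to 16.4 FPKM. Ethe1, a persulfide dioxygenase, was called lower between Atf4-/- and WT livers under ASNase, at 8.63 against 28.3 FPKM. Under PBS Ethe1 already had 15.6 FPKM in Atf4-/- against 33.7 in WT livers (-1.11), and its ASNase response in Atf4-/- livers was -0.85, neither called. Its intervals were also separate after ASNase in Gcn2-/- livers (log2 difference -1.49) and between Gcn2-/- and WT livers under ASNase (-1.43), both just inside the limit of 1.5. Of the choline and betaine genes 1 of 5 was called in at least 1 comparison, beside the 12.1% of all genes: Pipox, which oxidises the sarcosine that Gnmt forms, fell by 2.1 in Atf4-/- livers, from 163 to 37.8 FPKM. Of the polyamine and salvage genes, Srm, the spermidine synthase, rose by 2.02 in Atf4-/- livers, from 13.9 to 56.8 FPKM, and Odc1, the ornithine decarboxylase, rose by 1.56, from 17.1 to 50.6 FPKM. WT PBS livers had 17.1 FPKM of Srm and 27.7 of Odc1. Under ASNase neither was called between Atf4-/- and WT livers, with Srm at 1.47 (separate intervals) and Odc1 at 0.58. Adi1, of the methionine salvage route, fell by 1.52 after ASNase in Atf4-/- livers, from 67.1 to 23.4 FPKM, a call that was lost with a pseudocount of 1. Adi1 was also called lower in Atf4-/- than in WT livers under ASNase, at 23.4 against 105 FPKM (-2.16). That call was not lost under any alternative setting described below. None of the 5 genes of remethylation and adenosine metabolism was called in any comparison.

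**Figure D4:**
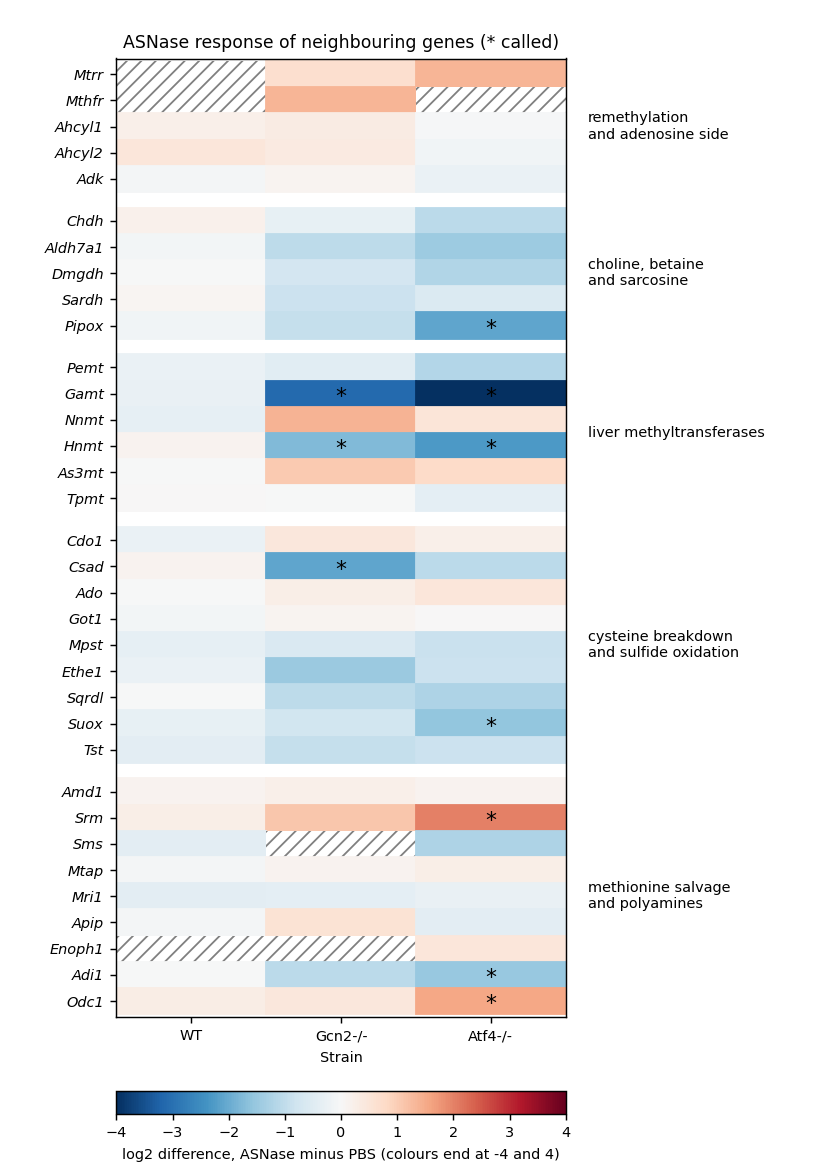
Difference of log2(FPKM + 0.1) between ASNase and PBS for genes next to the cycle, by list and strain, with colour from -4 to 4 and beyond shown at the end colours. Stars mark called genes (0 in WT, 3 in Gcn2-/- and 7 in Atf4-/- livers) and hatching marks genes that were not eligible.

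For comparison, 5 reference targets of ATF4 were taken. Trib3, a pseudokinase, had an FPKM of 5.46 (2.80 to 8.13) in WT PBS and 19.5 (11.4 to 27.7) in WT ASNase livers and was the only one of 5 called in WT, with a log2 difference of 1.82, where 0.881% of all eligible genes were called. Asns, the asparagine synthetase, had 2.5 (0 to 6.93) and 8.13 (1.97 to 14.3) in the same groups, which was not called. In Gcn2-/- livers 0 of 3 eligible targets were called after ASNase, beside 3.69% of all genes, and nothing is read from a count over 3 genes. Between Gcn2-/- and WT livers under ASNase 1 of 5 targets was called lower, beside 2.59% of all genes. It was Trib3, at 3.39 (1.49 to 5.28) against 19.5 FPKM. In Atf4-/- livers all 4 eligible targets, Trib3, Asns, Chac1 and Atf3, were called higher after ASNase, beside 2.74% of all genes, with Trib3 at 3.63 FPKM under PBS and 150 after ASNase. Psat1, the other target, was not eligible there, with 0.111 FPKM under PBS and 1.28 after ASNase. Against WT under ASNase, 3 of 5 targets were called higher in Atf4-/- livers, beside 2.59% of all genes. Psat1 was the only target with a lower value there, at 1.28 against 3.73 FPKM, with overlapping intervals. Cth, placed beside them, had its lowest value in Atf4-/- ASNase livers, as did Gnmt, Cbs and Bhmt2. Its ASNase response in that strain, -0.72 ± 1.11, lay within its error.

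For Cth and Gnmt, the 2 genes with the widest range, the genes with the most similar profile were sought among 9733 genes by Pearson's r of log2(FPKM + 0.1) over the 6 group values. With 6 points and 9733 genes high coefficients arise easily, the 6 values come from the same groups for all genes, and no p is given. The 5 genes nearest to Cth were Cyc1, Atp5h, Cox5a, Trrap and Ndufb8, with r of 0.996 for the first and 0.994 for the last. Ndufb8, for instance, had 227 (PBS) and 182 FPKM (ASNase) for WT, 240 and 114 for Gcn2-/- and 166 and 103 for Atf4-/- mice. The 5 nearest to Gnmt were Got2, Thnsl2, Acsl5, Ftl1 and Ehhadh, with r from 0.996 to 0.994. Their ranges differed widely, from 105 to 163 FPKM for Got2 to 12.6 to 190 for Ehhadh.

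Promoters from RefSeq (GRCm38.p6, 250 bases before to 50 after the start) were at hand for 8 of the 10 genes, without Cth and Mat1a. The C/EBP-ATF response element, searched on both strands as TGATGNAA, was in 0 of 8, and in 3.97% of 32851 promoters. The cAMP response element TGACGTCA was in 0 of 8 and in 1.79% of all. The antioxidant response element TGACNNNGC was in 0 of 8 and in 12.4% of all. The GC box GGGCGG was in 6 of 8, namely those of Ahcy, Bhmt2, Cbs, Mat2a, Mat2b and Mtr, and in 35.7% of all, and TATAAA was in that of Mat2a alone and in 13.6% of all. A missing match says only that these letters are not in the window.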

How the data were processed

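Liver RNA-Seq of 18 mice was taken as the authors deposited it, in 1 table of FPKM values with lower and upper bounds and a status for 6 groups. According to the sample labels and the study's methods, the authors aligned reads to mm10 with TopHat and estimated FPKM per group with Cuffdiff. Groups came from the sample titles, and 0 value columns were left outside the map. Differences were taken on log2(FPKM + 0.1) for genes with status OK and values above 0 in both groups and over 3 FPKM in either. No model over single libraries could be fitted, since the values are per group. Before use, the rule for calls was run on a simulated table with large known changes. Recovery was required only for genes with a lower bound above 0. That run does not show how the rule treats smaller changes or genes such as Cbs.

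The 10 genes and all gene lists were chosen with earlier results of these data known. All 10 were named. Of the neighbouring lists, genes called in any comparison were named (10 genes), and for the 2 genes with the widest range the 5 with the highest r. An item of these lists is not reported here by name.

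Positions, transcripts and overlaps came from GENCODE M21 on GRCm38, and shared windows of 100 bases from its transcripts. Calculations used Python 3.11.15, pandas 2.3.3, numpy 2.4.6, Biopython 1.88 and matplotlib 3.10.9.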

Additional observations from a re-analysis of the deposited data

How the results depend on the processing

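The counts of called genes and of genes with separate intervals stayed at 0 for the 10 enzymes in all 9 comparisons under pseudocounts of 1 and 0.01, a minimum of 1 FPKM, no minimum, a limit of 1 on the log2 difference, the combined interval and median-ratio scaling, as far as each applies. For the 35 neighbouring genes the same alternatives, added after seeing the data, kept the count of calls in each comparison within 1.5 times. Taken by direction, the count called higher between Atf4-/- and WT livers under ASNase went from 0 to 1 (Srm) with the limit of 1. Ethe1 was gained with that limit after ASNase in Gcn2-/- livers and between Gcn2-/- and WT livers under ASNase, the first also with median-ratio scaling. Dmgdh was gained between Atf4-/- and WT livers under ASNase with the combined interval and with median-ratio scaling. The call of Adi1 after ASNase in Atf4-/- livers was lost with a pseudocount of 1. Of the log2 differences of single genes, only that of Mat1a between ASNase and PBS in WT livers changed sign, from 0.03 to -0.0041 under median-ratio scaling, whose factors lay between 0.977 and 1.02. No paired analysis was possible because the table holds 1 value per group and none per mouse, so the fit with a replicate block and the omission of each replicate in turn were not run. The intervals limit what can be seen: for Cbs and Mat1a the error of a difference reached 3.73 and 2.15 on the log2 scale. These errors are approximate and set no size beyond which a change of Cbs would be seen. With a lower bound of 0 in all 6 groups, no pair of Cbs could have separate intervals.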

Other observations

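The ratio of Gnmt to Mat1a, chosen after the values had been seen, sets the enzyme that uses up S-adenosylmethionine against the one that makes it. WT mice had a ratio of 1.57 ± 1.64 under PBS and 1.46 ± 1.44 after ASNase, with the error from both Cuffdiff intervals. Gcn2-/- mice had 1.33 ± 1.36 and 0.491 ± 0.626, and Atf4-/- mice 1.06 ± 1.12 and 0.436 ± 0.486. Both knockout groups given ASNase lay below 1 and the other 4 groups above, and the errors were 99.1 to 127% of the values. The ratio of Mat1a to Mat2a was 39.4 ± 34.7 (PBS) and 35.3 ± 31.1 (ASNase) for WT, 48.1 ± 43.6 and 76.8 ± 92.3 for Gcn2-/-, and 38.0 ± 36.9 and 53.9 ± 57.2 for Atf4-/- mice. Bhmt over Bhmt2 lay between 5.29 ± 4.02 in Atf4-/- PBS and 11.2 ± 8.84 in WT ASNase livers. These ratios have no test.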
